A study of Mus musculus with 9 samples.

Results

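The proteasome is the protease that degrades most proteins tagged with ubiquitin, and its genes were followed here in mouse neural stem cells depleted of Med12. All genes of the array whose annotated symbol begins with Psma to Psmg and a number were taken, other than the immunoproteasome genes Psmb8, Psmb9 and Psmb10, which gave 46 of 19057 genes, measured by 81 probes. Of these, 44 encode proteasome subunits, activators or assembly chaperones, and 38 of the 44 had a probe above background and were tested. The other 2, Psmc3ip and Psme3ip1, were taken by the pattern but encode no part of the proteasome, and their values are given separately. The cells were mNS-5 NSCs, a clonal neural stem cell line made from mouse ES cells and kept in FGF-2 and EGF, so every array comes from 1 line. Lentiviruses delivered either a non-silencing (NS) control shRNA or a Med12-specific shRNA, and per the study's methods a single Med12 shRNA was used. In both groups puromycin at 600 ng/ml was given from 24 hours after infection, and the cells were harvested at 5.5 days. The labels place the arrays in 3 sets, each holding 1 NS control and 2 Med12 knockdown arrays, or 3 and 6 in all. Per the methods each group had 3 independent biological replicates, which matches the 3 sets, but which arrays those were is not said, so the second knockdown array of a set may be another culture or the same RNA run again. The SDs with n = 6 and the p-values over 9 arrays count these arrays singly and could be too small. A fit with 1 averaged knockdown value per set (3 against 3) is therefore given beside the counts.

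The 20S core of the proteasome is a barrel of stacked rings: outer rings of alpha subunits that gate the entrance, and inner rings of beta subunits, some of which cut proteins. The 19S cap on top of it has a base, whose ATPases unfold substrates and feed them into the barrel, and a lid, which strips ubiquitin from them. Activators can take the place of the 19S cap, and assembly chaperones build core and base without staying in the finished particle. Subunits of core, base and lid are made in fixed proportions, and their genes are known to rise together when proteasome activity falls short, through the transcription factor encoded by Nfe2l1. Med12 itself is a subunit of Mediator, the complex that passes signals from transcription factors to RNA polymerase II.

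The arrays were Illumina MouseWG-6 BeadChips with 45281 probes. Intensities are given on the authors' background-subtracted, quantile normalized linear scale, on which array medians were 8.9 to 9, and a probe was taken as above background over 16.9. The number of arrays, not a read depth, limits the precision. Of 10757 genes tested with limma, 706 were higher (6.56%) and 410 lower (3.81%) in knockdown cells at an adjusted p up to 0.05, or 10.4% in either direction. The intensity of Med12 was 355, 356 and 267 on the control arrays of sets 1 to 3 and 122, 121 and 176 on the first knockdown arrays and 165, 112 and 126 on the second (log2 fold change -1.26, limma adjusted p = 0.00276), so that the target of the shRNA was lower on all 6 knockdown arrays. All 7 neural stem cell markers tested, of 9 with a probe, were above background on all arrays, Pax6 and Msi1 were not, and no oligodendrocyte marker was. Of those 7, 0 were higher and 0 lower, with a median log2 fold change of -0.31. Cd44, Fabp7 and Vim had values of -0.65, -0.50 and -0.40 (limma adjusted p from 0.139 to 0.158), and Slc1a3 and Sox2 had 0.21 and 0.00. Of 5 astrocyte markers tested, 1 was higher (Aldh1l1, log2 fold change 1.04, limma adjusted p = 0.0400), a call lost in 16 of 26 alternatives, among them without any 1 array other than NS control replicate 2 (adjusted p from 0.0589 to 0.114). S100b and Gfap had values of 1.12 and 0.68 (limma adjusted p = 0.0727 and 0.0962). Aqp4 and Gja1, the rest of the list, were not called and lay below the list median of 0.68. Of the 5 markers, 2 were above background on all arrays. The summed intensities of the list, mostly Gja1, were lower on knockdown arrays, at 6080.1 to 6926 on control arrays and 5447 to 6096 on knockdown arrays. Summed intensities of the 2 fibroblast markers tested (Col1a2 and Dcn), of 5 with a probe, were 10.1 to 17.5 on control arrays and 24.0 to 347.9 on knockdown arrays, with Col1a1, Col3a1 and Pdgfrb not above background. Those of the 2 neuron markers tested (Dcx and Map2), of 6 with a probe, were 5212 to 6194 and 6337 to 8092. In both lists 0 genes were called, with median log2 fold changes of 0.79 (fibroblast) and 0.64 (neuron). Above background on all arrays were 0 of the fibroblast and 1 of the neuron markers. Of 4 pluripotent cell markers tested, of 6 with a probe, 0 were higher and 1 was lower (Esrrb, log2 fold change -1.03, limma adjusted p = 0.0181). That call was lost in 5 of 26 alternatives, and the summed intensities of the list were 105.1 to 133.3 on control arrays and 94.9 to 140.8 on knockdown arrays. The part of such cells in the proteasome values was not tested.

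Few proteasome transcripts differed from their control level upon Med12 depletion, and the differences were small. Of the 38 proteasome genes tested, 0 were higher in knockdown cells at that adjusted p, against a background of 6.56% of all genes tested, and 1 was lower (Psma8), against a background of 3.81% (limma, Benjamini-Hochberg over 10757 genes). At an unadjusted p of 0.05 or less the count was 5 of 38, against 26.8% of all genes. With the knockdown arrays of each set averaged, 0 were higher (3.2% of all genes) and Psma8 alone was lower (1.52% of all genes; limma adjusted p = 0.0485), and with the set as a replicate block in that fit 0 were higher (3.74%) and 0 lower (1.44%). No proteasome gene had a fitted difference of 2-fold or more, whatever its p, and 4.69% of all genes did (3.8% with an adjusted p up to 0.05 as well). The 95% interval of the log2 fold change lay between -1 and 1, that is inside a 2-fold change either way, for 34 of the 38 genes (89.5%) and for 75.3% of all genes. Inside the narrower range of -0.5 to 0.5 lay 15 of the 38 (39.5%), against 23.7% of all genes. Most of the small differences pointed down: 31 of 38 log2 fold changes were below 0, with a median of -0.15, where 50.3% of all genes were below 0 and their median was -0.00. In bulk RNA such as this, fewer cells of a kind and less RNA per cell cannot be told apart.

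**Figure D1:**
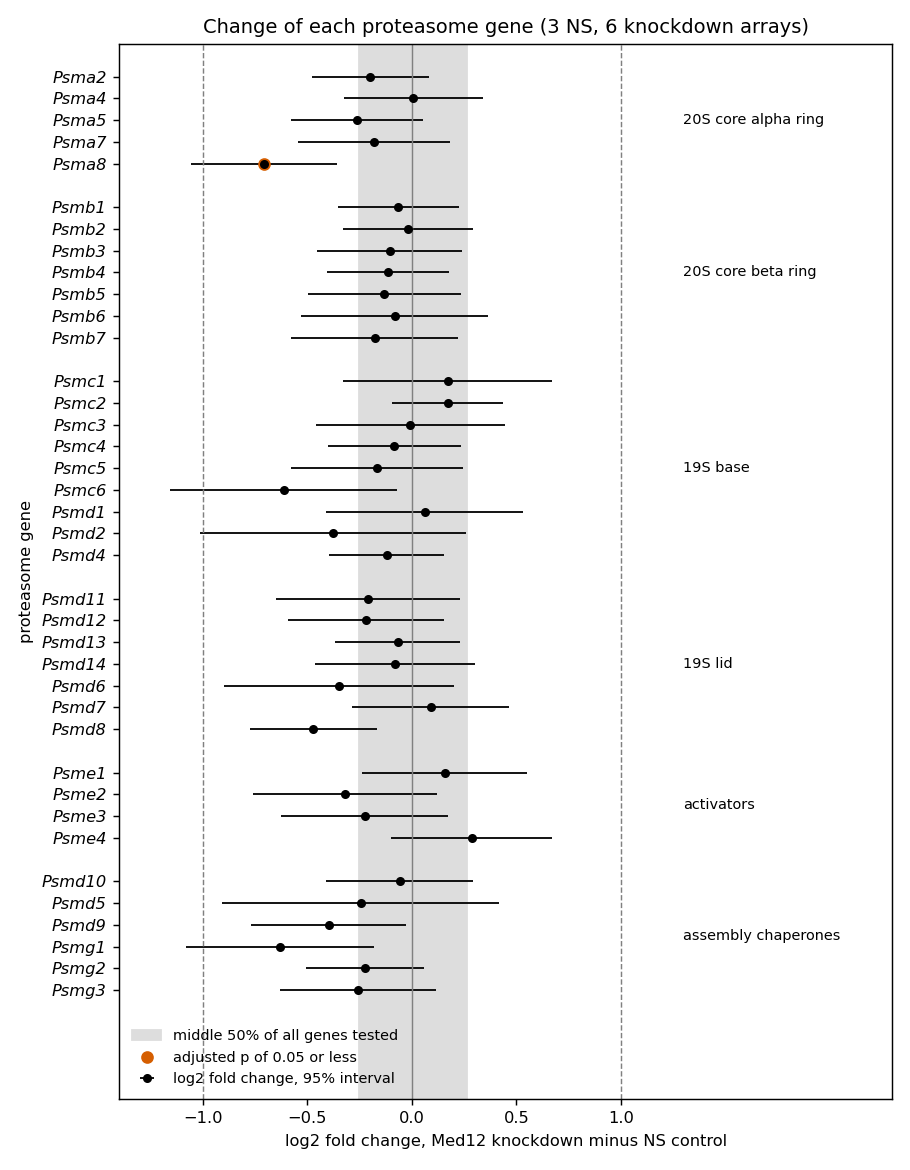
Log2 fold change (x axis, Med12 knockdown minus NS control) of each of the 38 proteasome genes tested (y axis, by module), with its 95% interval, over 3 NS control and 6 knockdown arrays. The grey band holds the middle 50% of all genes tested and the dashed lines mark a 2-fold change. Psma8, marked with an orange dot, is the 1 gene called, and 34 intervals lie between the dashed lines.

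By module, the median log2 fold change was -0.20 for the alpha ring (5 genes tested), -0.11 for the beta ring (7), -0.08 for the 19S base (9), -0.21 for the 19S lid (7), -0.03 for the activators (4) and -0.25 for the assembly chaperones (6). Taken as particles, the 20S core (12 genes) had a median of -0.12 and the 19S cap (16 genes) one of -0.10. All 6 medians were below 0. Leaving out 1 array moved the beta ring median between -0.18 (without NS control replicate 1) and -0.04 (without the first knockdown array of set 1 or NS control replicate 3), and the base median between -0.15 (without NS control replicate 1) and -0.04 (without the first knockdown array of set 1), with -0.13 without the second knockdown array of set 3. The lid median was -0.11 without NS control replicate 2 and -0.10 when the second set 1 knockdown array was dropped. The activator median moved by over 1.5 times whichever array was left out, from -0.16 (without NS control replicate 1) to 0.07 (without NS control replicate 2), and leaving out the second set 1 knockdown array also put it above 0. Those of the alpha ring and the chaperones moved by less than 1.5 times when 1 array was left out. No difference between modules was tested, as their members are genes and not replicates of a condition.

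Of the alpha subunits, Psma2, Psma4, Psma5, Psma7 and Psma8 were tested. Psma2, the brightest of the ring, had intensities of 17869.7, 19372 and 19372 on the control arrays of sets 1 to 3 and of 15161, 18883 and 16224 on the first knockdown arrays and 14019, 17673 and 17064 on the second. The groups overlapped, with means of 18871 ± 867 (SD, n = 3) in NS control cells and 16504 ± 1755 (SD, n = 6) in knockdown cells (log2 fold change -0.20, standard error 0.13, limma adjusted p = 0.345). Psma5, another constitutive ring subunit, had 15442, 17766 and 17494 in NS control cells and 13717, 14976 and 14352 on the first knockdown arrays and 10808, 15296 and 15833 on the second (log2 fold change -0.26, standard error 0.14, limma adjusted p = 0.272). Only the second array of set 3 reached the lowest control value. A pseudogene of Psma5 is annotated, and signal on its probes could in part come from it. Psma7 had a log2 fold change of -0.18 (95% interval -0.54 to 0.18) and Psma4 one of 0.01 (-0.32 to 0.34).

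Psma8, the alpha subunit that takes the place of Psma7 in the testis of mice, was lower in knockdown cells but close to background in both groups. Its intensities were 26.0, 30.8 and 27.3 in NS control cells and 7.40, 6.40 and 24.0 on the first knockdown arrays and 12.5, 15.8 and 12.9 on the second. All 3 control arrays were above the limit of 16.9 and 1 of the 6 knockdown arrays was, and no knockdown array reached a control array (log2 fold change -0.71, standard error 0.16, limma adjusted p = 0.0205). As values below 16 are set to 16 before log2, the fold change of this gene rests on that floor: it ran from -1.23 to -0.31 over the 26 alternatives. The call was lost under 8 of them, with adjusted p = 0.0815 without NS control replicate 2, 0.0674 without NS control replicate 3 and 0.0983 without set 1 (limma). Another probe for Psma8 was not above background on 3 arrays. Psma1, Psma3 and Psma6, which are part of every 20S core, each had 1 probe here, and its medians over the 9 arrays were -2.8, -16.1 and 2.6, so no level is given for them.

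All 7 beta subunits tested had log2 fold changes below 0 and none was called, with 0.561 as the smallest adjusted p from limma. Psmb4, a structural subunit and the brightest of the ring, had intensities of 14391, 17064 and 16844 in NS control cells and of 13048, 15339 and 16663 on the first knockdown arrays and 12964, 16224 and 15161 on the second. Those groups overlapped (log2 fold change -0.11, standard error 0.13, limma adjusted p = 0.618). The catalytic subunits were as close: -0.13 for Psmb5, which cuts after hydrophobic residues (95% interval -0.50 to 0.23), -0.08 for Psmb6, which cuts after acidic residues (-0.53 to 0.37), and -0.18 for Psmb7, which cuts after basic residues (-0.58 to 0.22). Psmb7, whose difference was the largest of the ring, had intensities of 8181, 11030.2 and 10092 in NS control cells and of 7363, 9442 and 9534 on the first knockdown arrays and 6264, 9922 and 9584 on the second. Both set 1 knockdown arrays were below all control arrays, while the other 4 lay between the control values. The structural subunits Psmb1, Psmb2 and Psmb3 had values of -0.06, -0.02 and -0.11. Pseudogenes are annotated for Psmb5, Psmb6 and Psmb7. Psmb11, the beta subunit of the thymus, was not above background on any array.

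In the 19S base, 3 of 9 genes tested had log2 fold changes above 0 and 6 below, and none was called. Psmc2, an ATPase of the base and its brightest member, had intensities of 11474, 13777 and 12544 in NS control cells and of 12762, 15062 and 13777 on the first knockdown arrays and 13156, 15487 and 14868 on the second. It was 12598 ± 1152 (SD, n = 3) in NS control cells and 14185 ± 1112 (SD, n = 6) in knockdown cells (log2 fold change 0.17, standard error 0.12, limma adjusted p = 0.392), with overlapping groups and a difference above 0 in each of the 3 sets (0.18, 0.15 and 0.19). The other ATPases Psmc1, Psmc3, Psmc4 and Psmc5 had log2 fold changes of 0.17, -0.01, -0.08 and -0.17. Psmc6, the sixth ATPase, differed the most: 61.0, 76.5 and 72.9 in NS control cells against 48.2, 60.1 and 48.2 on the first knockdown arrays and 44.4, 56.9 and 25.6 on the second. All 6 knockdown arrays were below all control arrays, yet the value missed the threshold (log2 fold change -0.61, standard error 0.24, limma adjusted p = 0.137; 95% interval -1.16 to -0.07), and the second array of set 3 was by far the lowest. Knockdown arrays lay wholly below the controls for 4 of the 38 proteasome genes (Psma8, Psmc6, Psmd8 and Psmg1) against 8.39% of all genes, and wholly above them for 0, against 10.6%. The scaffolds Psmd1 and Psmd2 had values of 0.06 and -0.38, and the ubiquitin receptor Psmd4 one of -0.12 (95% interval -0.39 to 0.15).

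**Figure D2:**
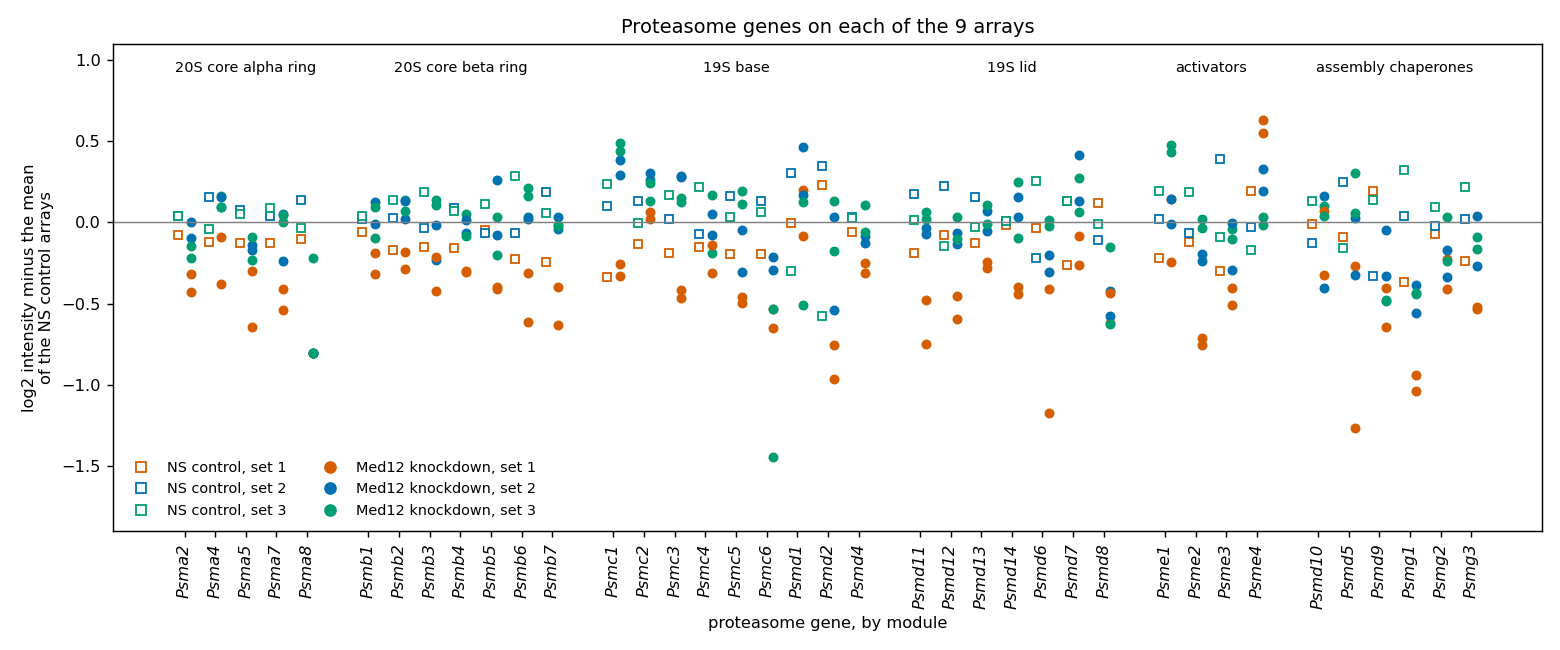
Log2 intensity of the 38 proteasome genes on each of the 9 arrays, minus the mean of the 3 NS control arrays (y axis), by gene and module (x axis), with open squares for NS control and filled circles for Med12 knockdown, coloured by set. The knockdown arrays of set 1 (orange circles) hold the lowest knockdown value for 32 of the 38 genes. For Psma8, 5 knockdown values lie on top of each other at the floor of 16.

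In the 19S lid, 6 of 7 genes tested had log2 fold changes below 0. Psmd13, its brightest member, had intensities of 7382, 9003 and 7915 in NS control cells and of 6816, 7778 and 8018 on the first knockdown arrays and 6635, 8489.9 and 8687 on the second, with overlapping groups (log2 fold change -0.07, standard error 0.13, limma adjusted p = 0.784). Psmd14, the deubiquitinase that removes ubiquitin chains, had a log2 fold change of -0.08 (95% interval -0.46 to 0.30), and Psmd7, its inactive partner, one of 0.09 (-0.29 to 0.47). Psmd8, a lid subunit that joins last in lid assembly in yeast, stood farther from its control level, with intensities of 408, 347 and 373 in NS control cells and of 244, 279.9 and 337 on the first knockdown arrays and 278, 252 and 243 on the second. Each knockdown array was below each control array, with means of 376 ± 30.2 (SD, n = 3) in NS control cells and 272 ± 35.8 (SD, n = 6) in knockdown cells. The difference missed the threshold (log2 fold change -0.47, standard error 0.14, limma adjusted p = 0.0550) and passed it with the set number as a replicate block (limma adjusted p = 0.0497), but not with the same block on 1 averaged knockdown value per set (limma adjusted p = 0.0985). It was below 0 within each set (-0.65, -0.39 and -0.38 in sets 1 to 3) and passed in 6 of 26 alternatives, among them without the first knockdown array of set 3 (limma adjusted p = 0.0279). Psmd6, Psmd11 and Psmd12, scaffold subunits of the lid, had values of -0.35, -0.21 and -0.22. Neither of the 2 probes for Psmd3, another lid subunit, was above background on 3 arrays.

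The activators were split in direction. Psme4, a single-chain activator of the nucleus and the brightest of them, had intensities of 4096, 3503 and 3184 in NS control cells and of 5534, 4093 and 3536 on the first knockdown arrays and 5229.8, 4486 and 3652 on the second. Both set 1 knockdown arrays were the highest of all, and the groups overlapped (log2 fold change 0.29, standard error 0.17, limma adjusted p = 0.324). Within sets the difference was 0.39, 0.29 and 0.17, above 0 in all 3. Psme2 and Psme1, which form the interferon-inducible activator ring, had log2 fold changes of -0.32 and 0.16. Psme2 had intensities of 340.4, 355 and 422 in NS control cells and of 219, 324 and 361 on the first knockdown arrays and 227, 314 and 376 on the second, so that its 2 set 1 knockdown arrays were the lowest, the 2 of set 2 were below all controls as well and the 2 of set 3 lay in the control range (log2 fold change -0.32, standard error 0.20, limma adjusted p = 0.335; 95% interval -0.76 to 0.12). A near copy, Psme2b, is annotated, and signal could be shared with it. Psme3, the activator of the nucleus that forms a ring by itself, had a value of -0.23 (95% interval -0.62 to 0.17). No probe is named here for Psmf1, the proteasome inhibitor.

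All 6 assembly chaperones tested had log2 fold changes below 0, and none was called. Psmg1, which pairs with Psmg2 to seed the alpha ring, had intensities of 1024, 1358 and 1655 in NS control cells and of 689, 1010.4 and 978 on the first knockdown arrays and 642, 898 and 973 on the second. The highest knockdown array was just below the lowest control array, with means of 1346 ± 316 (SD, n = 3) in NS control cells and 865 ± 159.7 (SD, n = 6) in knockdown cells (log2 fold change -0.63, standard error 0.20, limma adjusted p = 0.0749). NS control replicate 1 was also the lowest control, and within sets the difference was alike (-0.62, -0.51 and -0.76 in sets 1 to 3). With the set number as a replicate block it passed the threshold (limma adjusted p = 0.00591). With the same block on 1 averaged knockdown value per set it did not (limma adjusted p = 0.0578). It passed in 5 of 26 alternatives. With the block on all 9 arrays, 3 of the 38 proteasome genes were lower (Psma8, Psmd8 and Psmg1), where 6.98% of all genes were, and 0 were higher, where 10.6% were. Its partner Psmg2 had a log2 fold change of -0.22 (95% interval -0.51 to 0.06), and Psmg3, of the second chaperone pair of the alpha ring, one of -0.26 (-0.63 to 0.11). Psmg4, the partner of Psmg3, was not above background on any array. The base chaperones Psmd5, Psmd9 and Psmd10 had values of -0.25, -0.40 and -0.06. Psmd10, the brightest of the chaperones, had intensities of 1958, 1803 and 2159.5 in NS control cells and of 1575, 2201 and 2113 on the first knockdown arrays and 2065, 1489 and 2026 on the second, with overlapping groups (log2 fold change -0.06, standard error 0.16, limma adjusted p = 0.851).

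**Figure D3:**
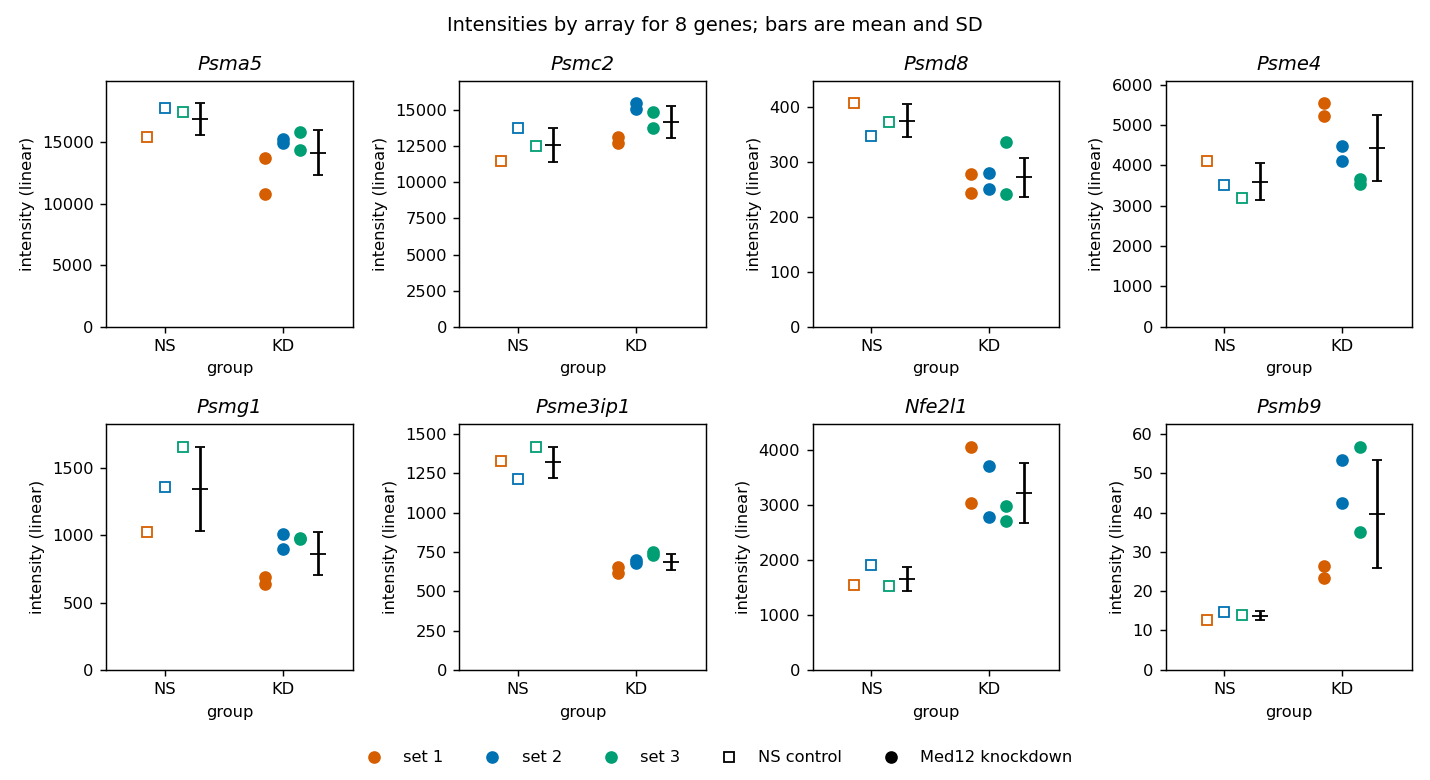
Linear intensity (y axis) on each array for 8 genes in NS control (NS, open squares) and Med12 knockdown cells (KD, filled circles), coloured by set, with the mean and SD of each group beside the points. Psma5, Psmc2 and Psme4 overlap between groups, Psmd8 and Psmg1 are just separated, Psme3ip1 falls from 1321 to 688 and Nfe2l1 rises from 1658 to 3215.

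Much of the downward lean came with 1 set. Over the 28 subunits of core, base and lid, the median difference from the control mean was -0.40 on both knockdown arrays of set 1, and it was 0.01, 0.04, -0.03 and 0.05 on the first arrays of sets 2 and 3 and the second arrays of sets 2 and 3. The NS control array of set 1 was also the lowest of the controls, at -0.13 against 0.08 and 0.05, while the median of all genes lay between -0.02 and 0.01 on every array. For 24 of the 28 subunits the lowest knockdown intensity was on a set 1 array, and for 32 of all 38 proteasome genes, where 38.8% of all genes had it there. Within sets, the median difference between knockdown and control over the 38 genes was -0.26 in set 1 (32 of 38 below 0), -0.10 in set 2 (23 of 38) and -0.05 in set 3 (23 of 38). Without set 1, which was left out after the data had been seen, the median over the 38 genes was -0.08 with 28 of 38 below 0, and 49.7% of all genes were below 0. Then 0 proteasome genes were higher (4.7% of all genes) and 1 was lower (Psmg1, limma adjusted p = 0.0413, where 2.09% of all genes were lower). Of the 38 genes, 15 were lower in each of the 3 sets (39.5%, against 24.5% of all genes) and 6 were higher in each (Psmc1, Psmc2, Psmd1, Psmd7, Psme1 and Psme4; 15.8%, against 26.8%). What sets set 1 apart was not tested.

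**Figure D4:**
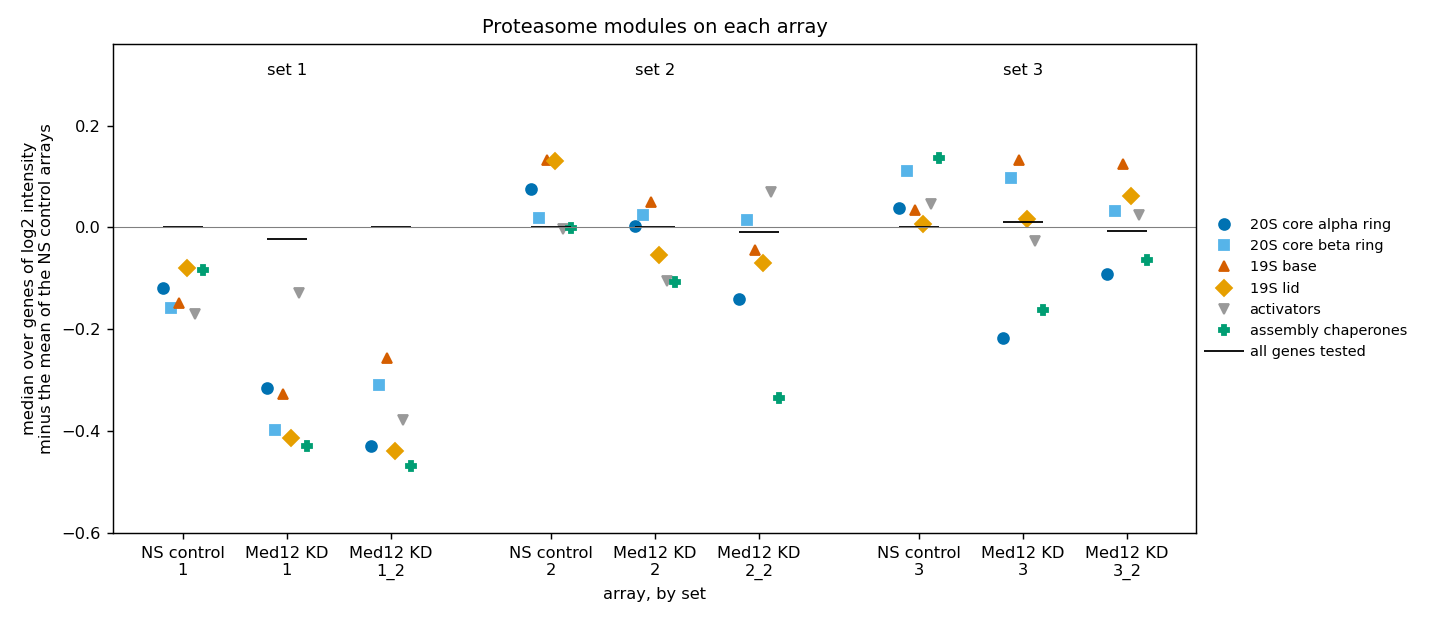
Median over the genes of each proteasome module of the log2 intensity minus the NS control mean (y axis) on each array, ordered by set (x axis), with black bars for all genes tested. On both knockdown arrays of set 1 the medians of core, base, lid and chaperones lie between -0.26 and -0.47, and the bars for all genes stay near 0.

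The size of the difference went with how bright the probe was. The 21 subunits of core, base and lid with a mean intensity of 1000 or more had a median log2 fold change of -0.08, and all 21 intervals lay inside a 2-fold change (91.4% of all genes as bright). For 13 of them (61.9%) the interval lay between -0.5 and 0.5, against 45.8% of all genes as bright. The 7 subunits under 1000 (Psma8, Psmb5, Psmc6, Psmd2, Psmd6, Psmd8 and Psmd11) had a median of -0.38, and all 7 were below 0. Of these, 4 intervals (57.1%) lay inside a 2-fold change, against 69.7% of all genes as dim, and 1 (14.3%) between -0.5 and 0.5, against 16.1%. The medians of all genes in these ranges were -0.01 and -0.00. In size, without the sign, the difference was larger in dim genes over the whole array as well. The median size was 0.19 for all bright genes and 0.28 for all dim genes, and 0.11 and 0.38 for the subunits.

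Different probes of a gene mostly gave the same sign. Of 77 probes for the 44 proteasome genes, 63 were above background, and tested probe by probe 0 were higher and 1 lower, where 4.35% and 2.85% of all 20026 probes were. Among 19 genes with several such probes, the sign was the same in 17, and the median range of log2 fold change within a gene was 0.16. Psmd2 had values of -0.38 and 0.21 on its 2 probes, and Psme1 had 0.16 and -0.09. The widest range among those of the same sign was that of Psmd7, from 0.00 to 0.53, and its value of 0.53 was on a dim probe with a control mean of 81.2.

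**Figure D5:**
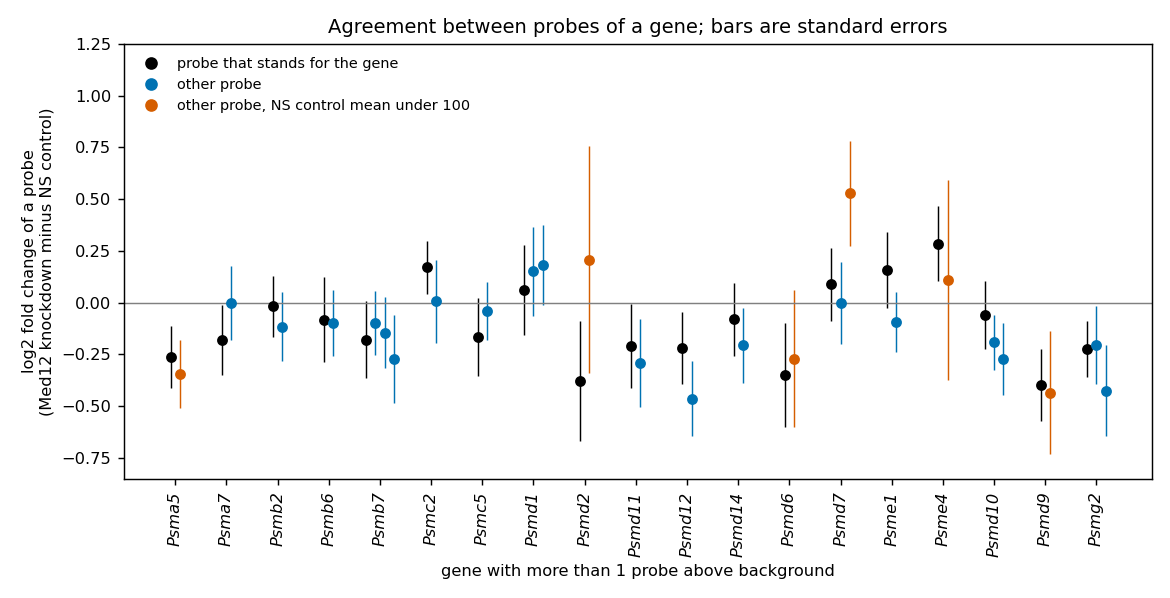
Log2 fold change and standard error (y axis) of each probe above background, for the 19 proteasome genes with more than 1 such probe (x axis). Black marks the probe that stands for the gene, blue the other probes and orange other probes with an NS control mean under 100. The widest bars, on probes of Psmd2 and Psme4, are orange, but the orange bar of Psma5 is narrow.

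Both genes that share the name pattern without being proteasome parts were lower. Psme3ip1, whose product binds the activator Psme3 in the nucleus, had intensities of 1327, 1217 and 1418 in NS control cells and of 656, 677 and 734 on the first knockdown arrays and 614, 698 and 749 on the second. All knockdown arrays lay far below all controls (log2 fold change -0.94, standard error 0.12, limma adjusted p = 0.00138), a second probe had a log2 fold change of -0.88 and all 26 alternatives kept the call. Psmc3ip, a factor of meiotic recombination, had intensities of 3160.5, 2746 and 2708 in NS control cells and of 1765, 2345 and 2095 on the first knockdown arrays and 1882, 1940.3 and 2366 on the second, again with no overlap (log2 fold change -0.48, standard error 0.14, limma adjusted p = 0.0497). Its call was at the threshold: 18 of 26 alternatives lost it, with adjusted p from 0.0512 to 0.152 when any 1 array was left out other than the second knockdown array of set 3 (limma). With 1 averaged knockdown value per set the limma adjusted p was 0.116.

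The immunoproteasome subunits, which replace the catalytic beta subunits in cells exposed to interferon, were outside the pattern and are given for comparison. Psmb9 had intensities of 12.6, 14.7 and 14.0 in NS control cells, not above background on any of the 3 arrays, and of 26.5, 53.4 and 56.8 on the first knockdown arrays and 23.4, 42.5 and 35.1 on the second. It was thus at least 2.22-fold higher in knockdown cells, measured against the limit of 16.9 (limma adjusted p = 0.0209). Its call was lost in 7 of 26 alternatives, among them without any 1 NS control array (adjusted p from 0.0621 to 0.0741). It was also lost with no filter on dim probes (limma adjusted p = 0.0792) and with averaged knockdown arrays and a replicate block (limma adjusted p = 0.0520). Psmb10 had a log2 fold change of 0.08 (limma adjusted p = 0.810), and Psmb8 was not above background on 3 arrays. Of 17 interferon response markers with a probe, 12 were tested, and 5 were higher (Ifi27l2a, Tap2, H2-D1, Rsad2 and Irf1), or 41.7% against 6.56% of all genes, and 0 lower, against 3.81%. The call of Irf1 was lost in 5 of 26 alternatives, among them without NS control replicate 2 (adjusted p = 0.0671) or 3 (adjusted p = 0.0684, limma). It was also lost with 1 averaged knockdown value per set (limma adjusted p = 0.0605). Among the uncalled markers, B2m was lower on every knockdown array than on any control array (log2 fold change -0.41, limma adjusted p = 0.0506). Tapbp and H2-K1 had values of -0.58 and -0.44, and Ifit3, Irf9, Usp18 and Tap1 had 1.29, 0.43, 0.37 and 0.27. Summed intensities of the list, mostly B2m, ran from 4758 to 5513 on control arrays and from 5046 to 5932 on knockdown arrays. Irf7, Isg15, Ifit1, Oasl2 and Bst2 were not above background. The part of these genes in the values of Psme1 and Psme2 was not tested.

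Among 10 regulators of proteasome gene transcription tested, 1 was higher (Nfe2l1), against 6.56% of all genes, and 1 lower (Nfyb), against 3.81%. Nfe2l1, which encodes a transcription factor of the endoplasmic reticulum membrane that is cleaved and switches on proteasome subunit genes when proteasome activity is low, had intensities of 1540.0, 1907 and 1528 in NS control cells and of 3041, 2777 and 2988 on the first knockdown arrays and 4068, 3706 and 2711 on the second. All knockdown arrays were above all controls, with means of 1658 ± 215 (SD, n = 3) in NS control cells and 3215 ± 547 (SD, n = 6) in knockdown cells (log2 fold change 0.95, standard error 0.16, limma adjusted p = 0.00652), and all 26 alternatives kept the call. Within sets the difference was 1.19, 0.75 and 0.90, while that of the 28 core, base and lid subunits was -0.26, -0.09 and -0.04. The transcript of its relative Nfe2l2 had a log2 fold change of 0.00 (95% interval -0.49 to 0.49). Nfyb, a subunit of the factor that binds CCAAT boxes, had intensities of 987, 1009 and 873 in NS control cells and of 618, 663 and 549 on the first knockdown arrays and 513, 635 and 679.8 on the second. These did not overlap (log2 fold change -0.65, standard error 0.13, limma adjusted p = 0.0130), and the call was lost in 5 of 26 alternatives, among them without NS control replicate 2 (adjusted p = 0.0549) and without set 1 (adjusted p = 0.0673, limma). It was also lost with averaged knockdown arrays and a replicate block (limma adjusted p = 0.0574). The partners of Nfyb, Nfya and Nfyc, had values of -0.02 and 0.19.

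The factor of Nfe2l1 binds antioxidant response elements, so the promoters of the proteasome genes were searched for the core of that element, TGACNNNGC, on both strands. RefSeq promoters (GRCm38.p6, 250 bases before to 50 after the start) were matched to 36 of the 44 genes, and 6 of them (16.7%) held the core, against 12.5% of all 27025 promoters of that length. The 4 windows with the core within 50 bases of the start are printed below, from 100 bases before to 10 after the start and 5′ to 3′ on the gene's strand, with the core in capitals, to show the sequences that the search matched. Psmb5 is at chr14:54617986-54618095 on the minus strand, and Psmb6 at chr11:70525257-70525366, Psme4 at chr11:30771675-30771784 and Psmd9 at chr5:123228090-123228199 are on the plus strand. In Psme4 the core reads on the opposite strand, so its reverse complement is in capitals.
Psmb5: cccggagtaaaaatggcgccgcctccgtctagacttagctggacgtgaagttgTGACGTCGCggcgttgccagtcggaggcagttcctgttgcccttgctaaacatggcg
Psmb6: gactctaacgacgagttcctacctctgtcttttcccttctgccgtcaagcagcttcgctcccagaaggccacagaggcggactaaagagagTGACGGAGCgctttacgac
Psme4: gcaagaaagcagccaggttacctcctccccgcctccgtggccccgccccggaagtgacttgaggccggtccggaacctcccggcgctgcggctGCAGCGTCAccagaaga
Psmd9: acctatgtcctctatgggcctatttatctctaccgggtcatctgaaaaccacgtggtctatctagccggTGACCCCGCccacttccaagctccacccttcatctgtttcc
The genes of these windows had log2 fold changes of -0.13 (Psmb5), -0.08 (Psmb6), 0.29 (Psme4) and -0.40 (Psmd9), none of them called. Psmc6 and Psmd12 held the core farther from the start and had values of -0.61 and -0.22. The 6 genes with the core had a median of -0.18 and the 25 tested genes whose promoter lacks it one of -0.17. A CCAAT box, the motif of the factor that includes Nfyb, was in 13 of the 36 promoters (36.1%), against 37.9% of all. The 9 tested genes with it had a median of -0.11 and the 22 without it one of -0.21. A match is a string of letters in this window and says nothing on binding.

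Other parts of the ubiquitin-proteasome pathway, from lists written for this description, held 3 called genes of 27 tested (11.1%), near the 10.4% of all genes. Of 9 proteasome-bound and assembly factors tested outside the pattern, 2 were higher (22.2%, against 6.56% of all genes) and 0 lower. Zfand2a, a stress-inducible protein that binds the proteasome, had intensities of 576, 641 and 592 in NS control cells and of 1018, 1008 and 1094 on the first knockdown arrays and 822, 978 and 907 on the second, with no overlap (log2 fold change 0.68, standard error 0.12, limma adjusted p = 0.00852). Ube3c, a ubiquitin ligase that sits on the proteasome, went from 1587 ± 232 (SD, n = 3) to 2283 ± 191 (SD, n = 6; log2 fold change 0.53, standard error 0.13, limma adjusted p = 0.0299). The mean of its probes gave 0.29 and no call, and so did leaving out NS control replicate 1 or 3, the first knockdown array of set 1 or the second of set 2 (adjusted p from 0.0548 to 0.126, limma). With 1 averaged knockdown value per set Ube3c was not called either (limma adjusted p = 0.110, or 0.106 with a replicate block). Pomp, which matures the 20S core, and Sem1, the smallest subunit of the lid, had log2 fold changes of -0.07 (95% interval -0.36 to 0.22) and -0.05 (-0.33 to 0.23). Of 10 shuttle and segregase factors, which bring substrates to the proteasome, 0 were higher and 1 was lower. This was Ube4b, which extends ubiquitin chains, at 1487 ± 175 (SD, n = 3) against 927 ± 118 (SD, n = 6; log2 fold change -0.68, standard error 0.15, limma adjusted p = 0.0176), which was no longer called without NS control replicate 2 (adjusted p = 0.0671) or 3 (adjusted p = 0.0768, limma). Nor was Ube4b called with 1 averaged knockdown value per set (limma adjusted p = 0.0585, or 0.0571 with a replicate block). Vcp, the segregase itself, had a value of 0.22 (95% interval -0.07 to 0.50). Of 8 genes of ubiquitin activation and conjugation, 0 passed in either direction.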

How the data were processed

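Total RNA of 3 NS control and 6 Med12 knockdown cultures or RNA samples had been amplified to biotinylated cRNA and hybridized to 1 array each. In GenomeStudio (version not given in the sources used here) the authors subtracted background and applied quantile normalization, and the deposited intensity values are linear and can be negative (33.4% to 33.5% of probes per array were below 0). The companion table of signals before normalization was not used here, because its 9 signal columns, of 18 columns in all, carry names that match no sample. Groups, set numbers and arrays were taken from the sample titles.

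From these intensities, values below 16 were set to 16 and log2 was taken, which understates the change of dim genes. The negative values, mirrored at 0, had an SD of 10.3, and the detection limit was put at 16.9 (one-sided p of 0.05). A probe entered when 3 or more arrays exceeded it (20026 probes), and each of the 10757 genes was read from its brightest such probe. Symbols came from the platform annotation (34885 probes with 1 symbol, 18 with several, 10378 unnamed here). A gene not above the limit on any array of a group is given as at least N-fold, with that group held at the limit. In R 4.3.3, limma 3.58.1 (lmFit, eBayes, two-sided) compared knockdown with NS control over all 9 arrays without covariates. Benjamini-Hochberg adjustment ran over all genes, and calls were made at 0.05. The study's methods also ask for a 2-fold change and do not name the test. The fit was run on simulated arrays with planted changes larger than any proteasome difference here and with no set effect. That run says nothing on its power for differences as small as those of the proteasome genes.

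Full values per array were given for called members, for the member of each module with the largest difference and for its brightest member. Psma5, which none of these rules picked, was given in full as well. Genes outside the pattern were named where called, with Med12, Nfe2l1 and the immunoproteasome genes. Uncalled examples were added after their values were seen: Pomp, Sem1, Vcp, Nfe2l2, Nfya and Nfyc, and the uncalled cell type and interferon response markers. The members and gene lists were chosen with earlier results of these data known.

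As a check of pairing, the deviation of each NS control array from its group mean was correlated over genes with the mean deviation of the 2 knockdown arrays of its set: r was 0.35, 0.18 and 0.18 in sets 1 to 3, and each control matched its own set best. Against single knockdown arrays r ran from 0.03 to 0.30. Between the deviations of the 2 knockdown arrays of a set from their group mean, r was 0.27, -0.05 and 0.02 in sets 1 to 3. Likeness within a set was thus clearest in set 1, and pairing in sets 2 and 3 rests on the match with the control array. The set number was taken to pair the arrays on that basis, and blocked values are printed where they change a call. Without taking off a group mean, the 2 knockdown arrays of a set correlated at 0.986 to 0.988 over genes and were not copies of each other. Such a value is carried by differences in level between genes. It does not tell another culture from the same RNA run again. The alternatives varied the floor, background, filter, probe, block, knockdown arrays, weights, variance prior and centring, and left out each array in turn. Promoters were searched with Python 3.11.15 and figures drawn with matplotlib 3.10.9.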

Additional observations from a re-analysis of the deposited data

How the results depend on the processing

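Under all 26 alternatives run, 0 proteasome genes were higher in knockdown cells, Med12 kept its call and no called gene changed sign. The 1 gene lower (Psma8) became 0 with values below 1 set to 1, with normexp on the deposited intensities, with averaged knockdown arrays and a replicate block, and with the first knockdown arrays alone. The count was 2 with 50 added before log2 (Psmd8 and Psmg1), with the strict limit or centred arrays (Psma8 and Psmd8), and with a variance trend (Psma8 and Psmg1). It was 3 with the set number as a replicate block and with the set as a random block. Leaving out 1 array gave 0 to 2, with 0 without NS control replicate 2 or 3 and 2 without the first knockdown array of set 3. The block changed no other proteasome call. Only Psma8, Psmd8 and Psmg1 were called under any alternative. Signs changed for 10 of the 38 genes, all with a main log2 fold change of at most 0.09 in size. The planned normalization of the unprocessed signals was not run, as those columns match no sample. Dropping set 1 was chosen after seeing the data. With 3 control arrays, differences of any size inside a printed interval cannot be told apart. The value of Psma8, with 5 knockdown arrays below 16, depends on the floor.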

Other observations

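The first and the second knockdown arrays of the sets were also set against each other, with the set as a block. Over 10757 genes limma called 0 after adjustment (433 had an unadjusted p of 0.05 or less). Of the 38 proteasome genes 0 were called and 0 had an unadjusted p of 0.05 or less, and their median difference, second minus first, was -0.02 on the log2 scale.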
